A study of Mus musculus with 6 samples.

Results

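Aldehydes, reactive carbonyls and epoxides form in heart muscle when lipids are oxidised, when amines are broken down and when foreign compounds are metabolised. Enzymes of several families remove them: aldehyde dehydrogenases oxidise aldehydes to acids, carbonyl reductases turn ketones, quinones and aldehydes into alcohols, epoxide hydrolases open epoxides with water, and conjugating pathways attach glutathione or glucuronic acid. Some genes of these families are textbook targets of NRF2, an oxidant-activated transcription factor, which binds a DNA motif called the antioxidant response element.

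The 10 enzyme genes described here belong to this defence and were measured in the mouse left ventricle: the aldehyde dehydrogenases Aldh1a1, Aldh2, Aldh3a2 and Aldh9a1, the carbonyl reductases Cbr1 and Cbr3, the epoxide hydrolases Ephx1 and Ephx2, the formaldehyde-pathway esterase Esd, and the UDP-glucose dehydrogenase Ugdh. They were found by gene symbol in the platform annotation, which assigned 11 probe sets to these 10 of the 19938 genes on the array, 2 of them to Esd. The set was chosen by enzyme function with the measured log2 differences between 2MT and saline already known, so their differences between the groups, and the p-values printed with them, are a description and not independent evidence.

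The hearts came from male C57BL/6 mice aged 10 weeks, and each of the 6 samples was hybridised to an Affymetrix gene expression array. The saline group had 3 arrays, and the group given 2-methyl-2-thiazoline (2MT), a small sulfur- and nitrogen-containing ring compound, had 3. The stated protocol, a subcutaneous injection of 2MT at 50 mg/kg with hearts taken 4 h later, is attached to all samples, and the group of each is taken from its title. The series was deposited to study how 2MT protects the heart. Nothing in the labels says that each array is a separate animal, so p-values here cover the variation among these 6 samples alone, and that variation may be technical. The mice carried no stated genetic change.

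All values are the authors' signals, taken as log2 from their range because no header states the base. A difference of 1 is therefore read as a doubling. Array medians lay between 4.32 and 4.37. A gene whose mean did not reach 4.345, the median over probe sets, was treated as dim and left untested, and 10547 genes remained. The tissue carried its expected muscle markers, with 12 of 12 cardiomyocyte genes above that level and a list mean of 12.11 to 12.12 in saline and 12.12 to 12.14 in 2MT. In whole tissue, fewer cells of a type and less RNA per cell cannot be told apart. Saline 3 carried more erythrocyte signal, with a mean of Alas2 and Bpgm of 6.92 against 5.76 to 6.08 elsewhere. The dim Slc4a1 was at 4.08 on saline 3 and 4.07 on saline 1. Saline 2 carried more of the atrial genes Myl4, Myl7 and Sln, the last 2 dim, with an atrial list mean of 6.22 against 5.41 to 5.59. The atrial gene Nppa went the other way, with its lowest value, 9.91, on saline 2. The part of these array differences in the results was not tested.

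Of the 10 genes, 9 passed the filter on dim signals, and Cbr3 did not. Among the 9, limma gave an adjusted p under 0.05 to 2, Aldh1a1 and Esd, both lower in 2MT, where 4.63% of all genes tested passed (2.41% lower, 2.22% higher). In 4 of the 9, Aldh1a1, Esd, Ephx1 and Ugdh, every 2MT array was below every saline array, as in 10.1% of all genes tested (21.1% had no overlap in either direction). The median difference was -0.03 over the 9 genes and 0.00 over all genes tested, so the list did not move as a block: a few enzymes were lower and the others lay close to their saline level.

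**Figure D1:**
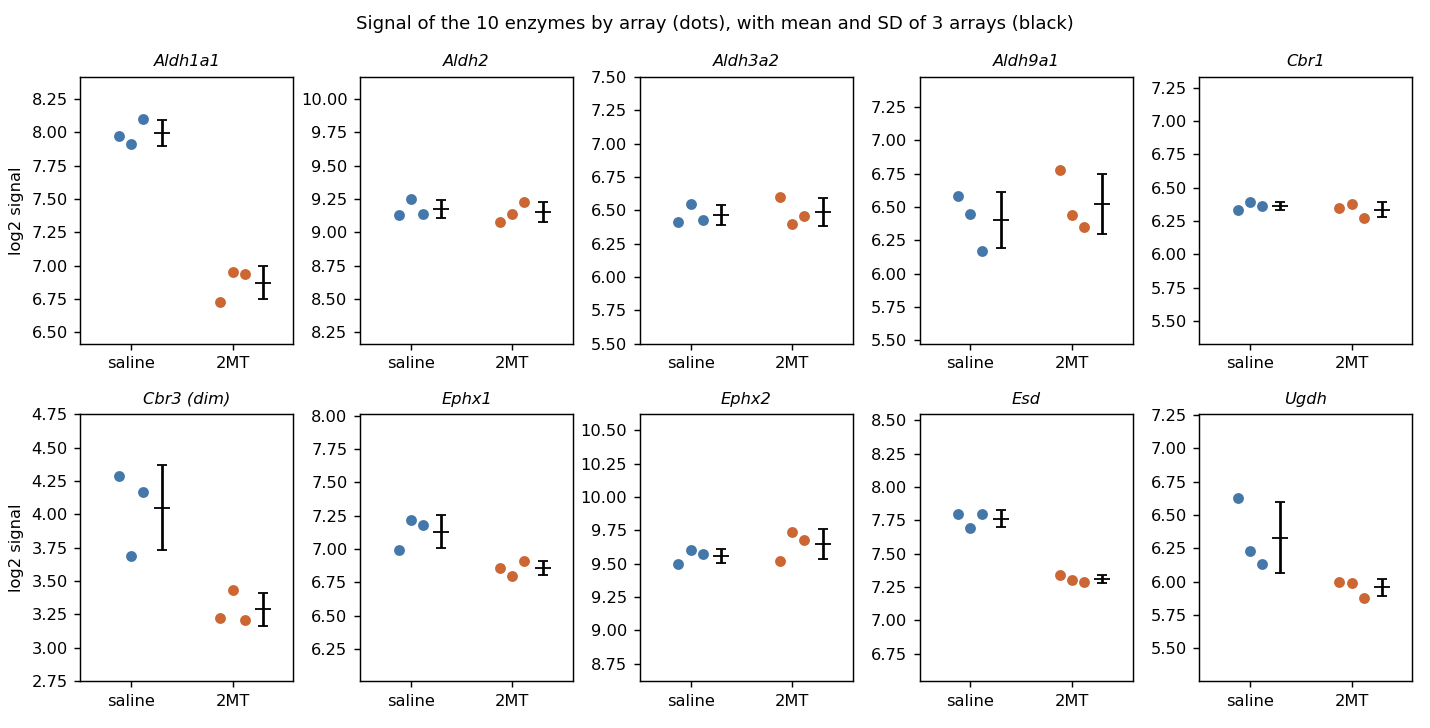
Log2 signal (vertical axis, a span of 2 in every panel) of the 10 enzyme genes on the 3 saline and 3 2MT arrays, with the mean and SD of each group in black. The groups are apart for Aldh1a1, Esd, Ephx1, Ugdh and the dim Cbr3, and overlap for Aldh2, Aldh3a2, Aldh9a1, Cbr1 and Ephx2.

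Promoter sequences are shown for 4 of the genes, because they place the enzymes that fell beside those that hold a match to the antioxidant response element. RefSeq windows (GRCm38.p6, from 250 bases before to 50 after a start site) were matched for 8 of the 10 genes by symbol, in 9 windows, all but those of Aldh2 and Ephx2. The windows were searched on both strands for the core of the element, TGACNNNGC, and for the CCAAT box, CCAAT, and matches to either are in capitals. Of the 2 start sites of Aldh1a1 the window of the second is printed, and which start the probe set reads is not known here.
Aldh1a1, chr19:20601718-20602017, plus strand: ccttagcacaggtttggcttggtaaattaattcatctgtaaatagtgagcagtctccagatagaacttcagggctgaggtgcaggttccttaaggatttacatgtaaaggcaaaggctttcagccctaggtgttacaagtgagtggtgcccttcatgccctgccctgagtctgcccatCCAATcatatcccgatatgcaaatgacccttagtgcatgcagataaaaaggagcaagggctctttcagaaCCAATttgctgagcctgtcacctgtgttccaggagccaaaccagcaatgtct
Esd, chr14:74732047-74732346, plus strand: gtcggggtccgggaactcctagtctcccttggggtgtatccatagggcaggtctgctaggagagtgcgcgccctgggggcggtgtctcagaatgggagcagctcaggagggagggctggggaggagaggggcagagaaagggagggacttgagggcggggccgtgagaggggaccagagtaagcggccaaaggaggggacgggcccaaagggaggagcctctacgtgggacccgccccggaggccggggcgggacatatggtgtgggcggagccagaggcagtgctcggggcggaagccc
Ugdh, chr5:65435793-65436092, minus strand: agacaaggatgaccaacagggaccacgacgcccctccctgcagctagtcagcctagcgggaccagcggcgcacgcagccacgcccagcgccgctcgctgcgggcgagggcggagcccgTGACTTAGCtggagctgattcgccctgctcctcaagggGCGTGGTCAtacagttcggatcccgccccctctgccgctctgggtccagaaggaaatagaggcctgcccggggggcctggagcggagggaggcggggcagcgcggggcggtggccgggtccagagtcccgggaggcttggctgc
Aldh9a1, chr1:167349741-167350040, plus strand: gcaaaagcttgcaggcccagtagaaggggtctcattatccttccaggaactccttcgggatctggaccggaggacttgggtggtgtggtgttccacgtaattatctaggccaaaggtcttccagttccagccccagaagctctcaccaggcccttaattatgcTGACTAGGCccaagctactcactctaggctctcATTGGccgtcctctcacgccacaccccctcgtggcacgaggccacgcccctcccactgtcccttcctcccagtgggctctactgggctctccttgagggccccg

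The response element core was present in the Ugdh window at 2 places, as TGACTTAGC at -132 to -124 and, on the opposite strand, as GCGTGGTCA at -94 to -86, counting back from the start site. The Aldh9a1 window held it once, as TGACTAGGC at -87 to -79. No match was in the windows of the other 6 genes, Aldh1a1 (both of its starts), Aldh3a2, Cbr1, Cbr3, Ephx1 and Esd. Of all 32851 windows of that length, 12.4% held the core. Thus 2 of 9 member windows held it, and the pair consisted of Ugdh, whose groups were apart, and Aldh9a1, whose groups overlapped. Counted by gene with a window, the core was in 2 of 8 members, 16.9% of genes tested and 23.0% of related genes tested. It was in 24.6% of genes called lower (47 of 191) and 14.9% of genes called higher (26 of 175). Whether these shares differ was not tested. The CCAAT box was in 5 of the 9 windows, those of Aldh1a1 (1 of its 2), Aldh3a2, Aldh9a1, Cbr1 and Ephx1, and in 37.4% of all windows. A match is a description of letters and not evidence of binding, and sites outside these windows were not searched. The windows differed in base composition, from 43.3% G and C at the other Aldh1a1 start to 71.0% at Ugdh, with 1 CpG in the printed Aldh1a1 window, 17 in that of Esd and 27 in that of Ugdh, where the median over all windows was 7.

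Aldh1a1 encodes a cytosolic aldehyde dehydrogenase that oxidises retinal to retinoic acid and also clears aldehydes from lipid peroxidation. Its signal (probe set 10461979) was 7.97, 7.91 and 8.10 on the saline arrays and 6.73, 6.95 and 6.94 on the 2MT arrays. The lowest saline array was 0.96 above the highest 2MT array, a gap several times the spread within either group. The means were 7.99 ± 0.10 and 6.87 ± 0.12 (SD, n = 3), which is 2.17-fold lower in 2MT, and the gene fell by 1.12 ± 0.08 (SE, adjusted p = 7.41e-07). It ranked 13th by p-value and 15th by size of fall among the 10547 genes. The fall ran from 1.05 to 1.16 with any single array left out, and the gene passed each time.

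The mouse has a close paralogue, Aldh1a7, whose own probe set was dim, at 2.86, 2.50 and 2.51 in saline and 2.46, 2.52 and 2.24 in 2MT. Whether probes of Aldh1a1 also bind its transcript was not tested. Among other cell types of the ventricle were endothelial cells, whose 11 markers all lay above the dim level. Their list mean was 7.24 to 7.39 in saline and 7.26 to 7.39 in 2MT. The markers went both ways, with 6 means lower in 2MT and 5 higher. Pecam1 fell and was the 1 marker that passed limma (adjusted p = 0.02). Without overlap 3 of the 11 were lower and 1 was higher, where 10.1% and 11.1% of all genes tested were. Of 8 epicardial and mesothelial markers 2 were above the dim level, and the list mean was 3.72 to 3.89 in saline and 3.69 to 3.85 in 2MT. The part of these cells in the fall of Aldh1a1 was not tested.

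Aldh2, the mitochondrial enzyme that removes acetaldehyde and hydroxynonenal and is much studied in cardiac ischaemia, did not follow Aldh1a1. Its signal was 9.13, 9.25 and 9.14 in saline and 9.08, 9.14 and 9.23 in 2MT, and the groups overlapped. The difference was -0.02 with a 95% interval of -0.14 to 0.10 (adjusted p = 0.89), so a change as large as that of Aldh1a1 lies far outside the interval.

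Aldh3a2 encodes the fatty aldehyde dehydrogenase of the endoplasmic reticulum, which oxidises long-chain aldehydes from sphingolipid and ether lipid breakdown. It was at 6.41, 6.55 and 6.43 in saline and at 6.60, 6.40 and 6.46 in 2MT, a difference of 0.02 (95% interval -0.14 to 0.19). The 2MT arrays thus held both the highest and the lowest value.

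Aldh9a1 encodes the aldehyde dehydrogenase of carnitine synthesis, which also accepts aminobutyraldehyde. Its arrays were the most scattered of the 4, at 6.58, 6.45 and 6.17 in saline and 6.78, 6.44 and 6.35 in 2MT. The means were 6.40 ± 0.21 and 6.52 ± 0.23 (SD, n = 3), and the difference of 0.12 had an interval of -0.13 to 0.38 (adjusted p = 0.65). The difference was 0.01 without saline 3 and -0.01 without 2MT 1, so no direction can be read from it.

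**Figure D2:**
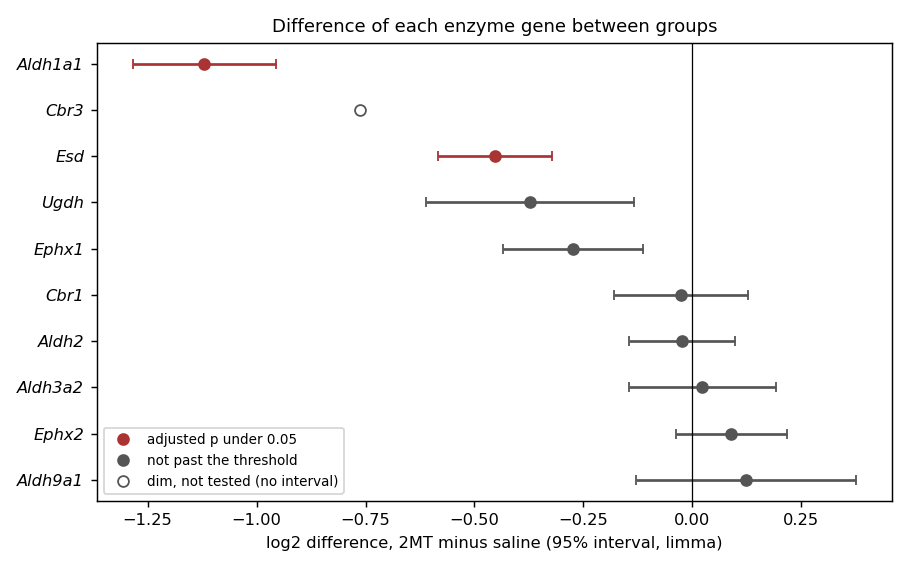
Log2 difference, 2MT minus saline (horizontal axis), of each enzyme gene, with limma's 95% interval for the 9 genes tested and an open point without interval for the dim Cbr3. Aldh1a1 (-1.12) and Esd (-0.45), in red, passed an adjusted p of 0.05. The intervals of Ugdh and Ephx1 lie below 0 without passing after adjustment, and those of Cbr1, Aldh2, Aldh3a2, Ephx2 and Aldh9a1 span 0.

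The carbonyl reductases Cbr1 and Cbr3 are NADPH-dependent enzymes of the short-chain dehydrogenase family, and Cbr1 is known in the heart for reducing anthracycline drugs. The genes are neighbours in the RefSeq annotation, with no other protein-coding gene between their starts. Cbr1 was at 6.33, 6.39 and 6.36 in saline and 6.35, 6.38 and 6.27 in 2MT, a tight and overlapping set with a difference of -0.03 (95% interval -0.18 to 0.13, adjusted p = 0.90). Cbr3 was at 4.29, 3.69 and 4.17 in saline and 3.22, 3.43 and 3.21 in 2MT. All 6 of its values lay under the dim level of 4.345, and the 2MT arrays were below the saline arrays with a gap of 0.26. Its means were 4.05 ± 0.32 and 3.29 ± 0.12 (SD, n = 3), 1.70-fold lower in 2MT. It was not tested with the other genes. In a limma fit with no dim filter, 409 of 19938 genes passed (222 lower), Cbr3 among them at an adjusted p of 0.0168. Signal over background is unknown for it, so the size of its difference may be understated or overstated.

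Ephx1, the microsomal epoxide hydrolase that acts on epoxides of foreign compounds, was at 6.99, 7.22 and 7.18 in saline and 6.86, 6.80 and 6.91 in 2MT. The arrays did not overlap, with a gap of 0.08. The means of 7.13 ± 0.12 and 6.86 ± 0.06 (SD, n = 3) differed by -0.27 ± 0.07 (SE), a 1.21-fold lower level in 2MT whose adjusted p of 0.0540 just missed the threshold. It passed without saline 1 (adjusted p = 0.0258), under quantile normalization (0.0463), cyclic loess (0.0464) and the stricter dim filter (0.0492), and reached 0.196 without 2MT 2.

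Ephx2, the soluble epoxide hydrolase that turns fatty acid epoxides such as epoxyeicosatrienoic acids into diols, lay on the other side of 0. It was at 9.50, 9.60 and 9.57 in saline and 9.52, 9.74 and 9.68 in 2MT. The groups overlapped through 2MT 1, and the difference of 0.09 had an interval of -0.04 to 0.22 (adjusted p = 0.47). Whether Ephx1 and Ephx2 differed from each other in response was not tested.

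Esd encodes S-formylglutathione hydrolase, which completes the glutathione-dependent removal of formaldehyde begun by Adh5. Its brighter probe set (10416411) was at 7.80, 7.69 and 7.80 in saline and 7.34, 7.30 and 7.29 in 2MT. Both groups were tight, and the gap between them was 0.35. The means of 7.76 ± 0.06 and 7.31 ± 0.03 (SD, n = 3) give a 1.37-fold lower level in 2MT, and the gene fell by 0.45 ± 0.06 (SE, adjusted p = 0.000594). The second probe set (10417273) read 7.29, 7.40 and 7.44 in saline and 7.14, 7.03 and 7.07 in 2MT, also without overlap. There the difference was -0.30, and its adjusted p was 0.0394 when each of 14480 probe sets was tested on its own, a fit in which 2.9% of probe sets passed (1.6% lower). The probe sets of Esd gave the same direction and different sizes, and the gene passed in all 18 alternatives run for it.

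Ugdh encodes the dehydrogenase that makes UDP-glucuronic acid, used for glucuronidation and for the sugar chains of proteoglycans and hyaluronan. It was at 6.63, 6.23 and 6.13 in saline and 6.00, 5.99 and 5.88 in 2MT. The 2MT arrays were all lower, but the gap was 0.13 and saline 1 stood above the other saline arrays. The means of 6.33 ± 0.26 and 5.96 ± 0.07 (SD, n = 3) differed by -0.37 ± 0.11 (SE, adjusted p = 0.0766). The difference was -0.22 without saline 1 (adjusted p = 0.249) and -0.47 without saline 3 (adjusted p = 0.0269), so leaving out a single saline array moved both its size and its call. It also passed with array weights (adjusted p = 0.0400).

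**Figure D3:**
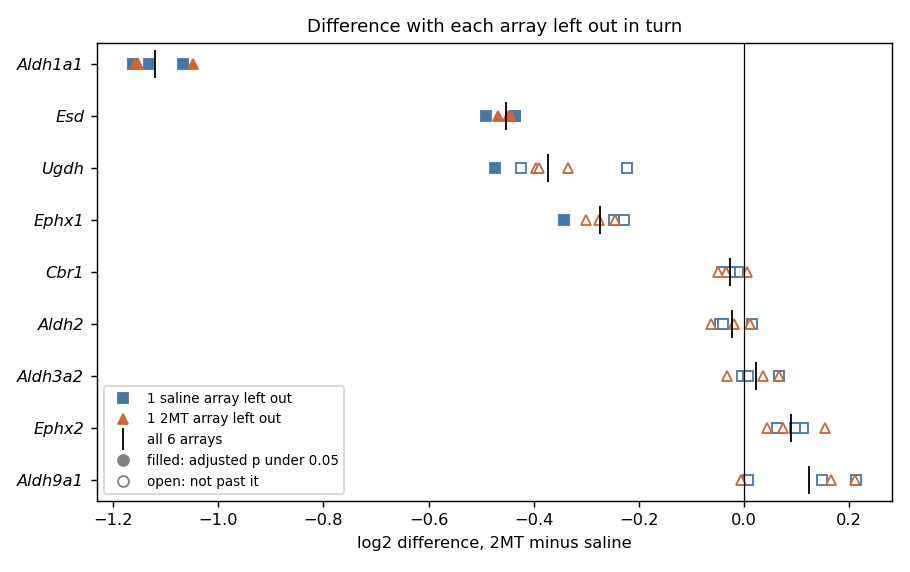
Log2 difference, 2MT minus saline, of the 9 enzyme genes tested, with all 6 arrays (black tick) and with 1 array left out (squares, a saline array; triangles, a 2MT array; filled where limma's adjusted p was under 0.05). Aldh1a1 and Esd are filled at every omission, Ugdh spans -0.47 to -0.22, and Aldh9a1 reaches 0 when saline 3 or 2MT 1 is left out.

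The genes whose 6-array pattern was nearest to that of Aldh1a1, the member with the largest difference, were Ptgs2, Fam107a and Txnrd1. Nearness was the root mean square distance over the 6 arrays after each gene's saline mean was subtracted, and it was 0.05, 0.09 and 0.10 in that order. Ptgs2, the inducible cyclooxygenase, was at 5.74, 5.65 and 5.81 in saline and 4.55, 4.63 and 4.63 in 2MT. Fam107a was at 7.50 ± 0.09 and 6.39 ± 0.09, and Txnrd1, the cytosolic thioredoxin reductase, at 7.86 ± 0.05 and 6.78 ± 0.06 (SD, n = 3). This measure mainly picks genes with a fall of the same size, and nothing about shared control follows from it.

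Around these 10 enzymes, 190 further genes were listed in 11 groups by reaction, of which 168 were on the array and 87 above the dim level. Of the 87, 2 fell and 1 rose (3.45%, against 4.63% of all genes tested), and their median difference was 0.03. The share called was near that of all genes, and the 3 calls came from 3 different lists. The counts at an unadjusted p under 0.05 given below stand beside 17.8% of all genes tested.

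**Figure D4:**
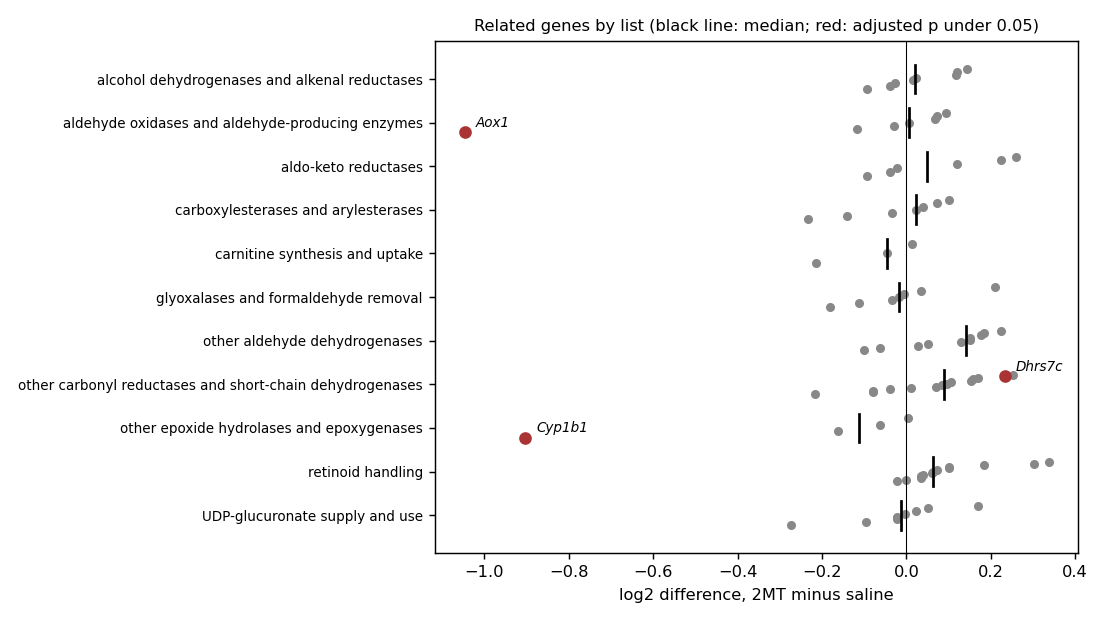
Log2 difference, 2MT minus saline (horizontal axis), of the 87 related genes tested, by list, with each list's median as a black line. Aox1 and Cyp1b1 lie near -1, Dhrs7c at 0.23 is the called gene on the higher side, and all other points lie between -0.27 and 0.34.

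Aox1, an aldehyde oxidase that uses molybdenum and oxidises aldehydes, retinal among them, had the largest difference of the 87. It was at 7.83, 8.17 and 7.51 in saline and 6.51, 7.02 and 6.84 in 2MT, and it fell by 1.05 ± 0.14 (SE, adjusted p = 0.000695), 2.07-fold. The arrays were scattered within each group, yet the highest 2MT array was below the lowest saline array. The other 6 tested genes of aldehyde oxidation and production had differences from -0.12 (Xdh) to 0.09 (Maob), and 0 of them passed limma (0 had an unadjusted p under 0.05).

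Cyp1b1, a cytochrome P450 that oxidises foreign compounds, oestrogens and retinoids and can form epoxides, was at 6.14, 6.08 and 6.11 in saline and 5.44, 4.84 and 5.34 in 2MT. It fell by 0.90 ± 0.13 (SE, adjusted p = 0.000876), 1.87-fold, with tight saline arrays and a low 2MT 2. Without 2MT 2 the fall was 0.72 (adjusted p = 0.00111). Of the other 3 tested genes of its list, Cyp2j9, Cyp2j6 and the leukotriene hydrolase Lta4h, 0 passed limma (0 had an unadjusted p under 0.05). The epoxide hydrolases Ephx3 and Ephx4 were dim, at means of 3.24 and 2.12 in saline.

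Of 10 other aldehyde dehydrogenases tested, 0 passed limma (1 had an unadjusted p under 0.05), the median difference was 0.14, and 8 of 10 means were higher in 2MT. Aldh6a1, the methylmalonate semialdehyde dehydrogenase of valine breakdown, was at 9.17 ± 0.10 in saline and 9.39 ± 0.13 in 2MT (SD, n = 3, adjusted p = 0.0812), and it passed without saline 3 (0.0450) and without 2MT 1 (0.0398). Aldh4a1, a mitochondrial enzyme of proline breakdown, was at 7.21 ± 0.03 and 7.11 ± 0.10, with every 2MT array below every saline array by at least 0.02 (adjusted p = 0.492). In Aldh6a1 every 2MT array was above every saline array. Of all genes tested, 10.1% were lower and 11.1% higher without overlap. Aldh1a2, another retinal dehydrogenase, was at 4.41 ± 0.06 and 4.59 ± 0.16, close to the dim level (adjusted p = 0.438).

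Among 14 tested carbonyl reductases and short-chain dehydrogenases besides Cbr1 and Cbr3, Dhrs7c, a muscle protein of the sarcoplasmic reticulum, rose by 0.23 ± 0.06 (SE, adjusted p = 0.0496) and 0 fell (5 at an unadjusted p under 0.05). It was at 8.09, 8.0 and 8.20 in saline and 8.37, 8.34 and 8.28 in 2MT. The call is marginal: it was lost in 10 of 17 alternatives, among them leaving out saline 1 (0.126), saline 2 (0.171), 2MT 1 (0.145), 2MT 2 (0.151) or 2MT 3 (0.106), quantile normalization (0.0513) and cyclic loess (0.0600). Cbr4, a mitochondrial carbonyl reductase, was at 7.47, 7.41 and 7.55 in saline and 7.21, 7.29 and 7.28 in 2MT. The 2MT arrays were all lower, with a gap of 0.12, and the difference of -0.22 ± 0.06 (SE) did not pass (adjusted p = 0.0734). Dhrs7 went the other way, with a difference of 0.25 ± 0.08 (SE, adjusted p = 0.0972) and every 2MT array above every saline array. Of the 14 genes, 1 was lower and 3 were higher without overlap, where 10.1% and 11.1% of all genes tested were. Of 6 tested aldo-keto reductases 0 passed limma (2 had an unadjusted p under 0.05), with Akr1b10 at 8.07 ± 0.22 and 8.33 ± 0.11 and Akr1e1 at 6.46 ± 0.04 and 6.68 ± 0.15 (saline, then 2MT, SD, n = 3). Akr1b10 passed without saline 3 (adjusted p = 0.0474). Of 8 alcohol dehydrogenases and alkenal reductases 0 passed (2 at an unadjusted p under 0.05), with Adhfe1 at a difference of 0.12 and Zadh2 at 0.14.

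Genes that work beside Esd, Ugdh and Aldh9a1 were read next. Adh5, which makes the substrate of Esd, had a difference of -0.03 (95% interval -0.17 to 0.11). Of 7 tested genes of glyoxalases and formaldehyde removal 0 passed limma (2 had an unadjusted p under 0.05), with Park7 at 9.41 ± 0.11 and 9.23 ± 0.02 (adjusted p = 0.0991) and Haghl at 4.67 ± 0.06 and 4.88 ± 0.04. Glo1, the first glyoxalase, was at 8.12 ± 0.04 and 8.01 ± 0.02 (adjusted p = 0.303). Park7 passed without saline 3 (adjusted p = 0.0317). Of 8 tested genes that supply or use UDP-glucuronate 0 passed (2 at an unadjusted p under 0.05). Uxs1, which converts the product of Ugdh to UDP-xylose, was at 5.97 ± 0.10 and 5.70 ± 0.19 (adjusted p = 0.167), and Ugp2, which makes the substrate of Ugdh, at 8.48 ± 0.14 and 8.65 ± 0.06 (adjusted p = 0.216, and 0.0314 without saline 3). In Park7, Glo1 and Uxs1 every 2MT array was below every saline array, as in 10.1% of all genes tested. In Haghl every 2MT array was above every saline array, as in 11.1%. Without overlap, 2 of the 7 glyoxalase and formaldehyde genes were thus lower and 1 was higher. Of the 8 UDP-glucuronate genes 1 was lower and 0 were higher. Of 3 tested carnitine genes 0 passed (0 at an unadjusted p under 0.05), with the carnitine transporter Slc22a5 at a difference of -0.21 and Shmt1 at -0.05. Of 7 carboxylesterases and arylesterases 0 passed (0 at an unadjusted p under 0.05), with Ces1d at -0.23 and Pon2 at 0.07.

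Because Aldh1a1, Aox1 and Cyp1b1 all act on retinoids, the genes of retinoid handling are given as well. Of 13 tested 0 passed limma (3 had an unadjusted p under 0.05), and the median difference was 0.06. Rarb, a retinoic acid receptor whose gene is itself induced by retinoic acid, was at 6.34, 6.60 and 6.21 in saline and 6.78, 6.65 and 6.73 in 2MT, a difference of 0.34 ± 0.09 (SE, adjusted p = 0.0568), and it passed without saline 2 (0.0121). Cyp26b1, which breaks down retinoic acid, was at 4.72, 4.68 and 4.63 in saline and 4.79, 5.16 and 4.99 in 2MT, a difference of 0.30 ± 0.11 (SE, adjusted p = 0.149). In both genes all 2MT arrays were above all saline arrays, which held for 11.1% of all genes tested. Of the 13 genes 3, Rarb and Cyp26b1 among them, were higher without overlap and 0 were lower.

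**Figure D5:**
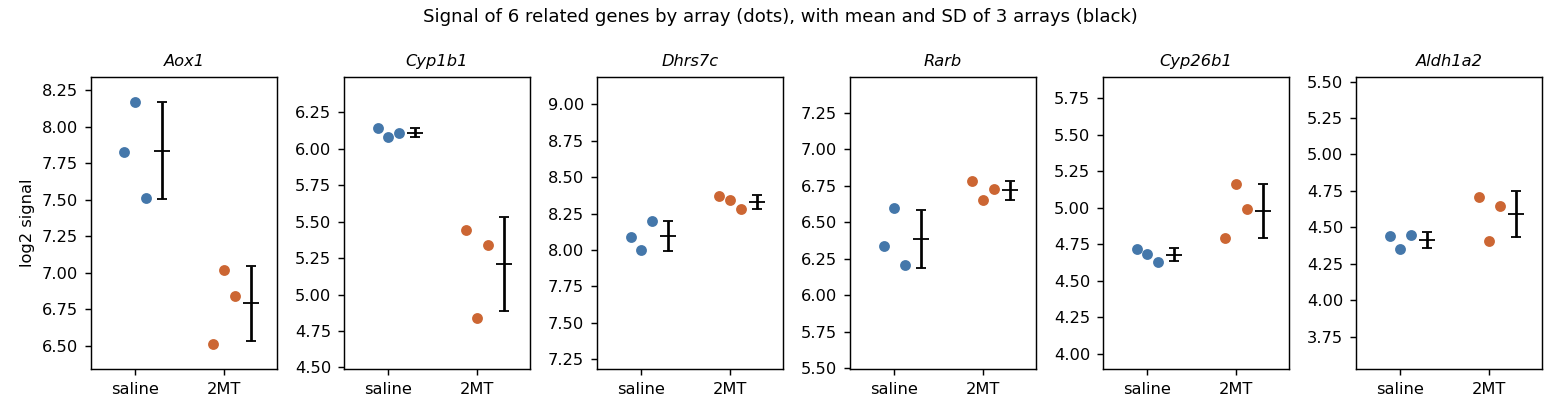
Log2 signal (vertical axis, a span of 2 in every panel) of Aox1, Cyp1b1, Dhrs7c, Rarb, Cyp26b1 and Aldh1a2 on the 3 saline and 3 2MT arrays, with the mean and SD of each group in black. Aox1 and Cyp1b1 are lower on every 2MT array, Dhrs7c, Rarb and Cyp26b1 are higher on every 2MT array, and Aldh1a2 overlaps.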

How the data were processed

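The data are 6 Affymetrix arrays of mouse left ventricle, with 1 deposited log2 value per probe set and array. MAS5 is the tool named in the submitters' processing notes, with no version or role. Other steps by the authors, and the genome build, are not given in the sources used here; a log base of 2 was read from the range of the deposited values, 0.51 to 13.5, and no header states it. Of 28944 probe sets, 21789 had 1 symbol in the platform annotation, and the probe set of highest mean stood for each gene. The test was limma 3.58.1 under R 4.3.3 (lmFit and eBayes with a variance trend, two-sided), on deposited values, with Benjamini-Hochberg adjustment over 10547 genes. An exact permutation test of 3 against 3 cannot go below 0.1, so none is printed. Detection calls were not used here, and precision is limited by the number of arrays.

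The members and gene lists were chosen with earlier results of these data known. Named were the 10 members, every called gene of each related list (or the 2 with the smallest p) and the 3 nearest patterns. Lta4h, Cyp2j6, Cyp2j9, Xdh, Maob, Ephx3, Ephx4, Aldh1a7, Aldh4a1, Cbr4, Glo1, Adh5 and Pecam1 were added after their values were seen. So were Dhrs7, Slc4a1, Myl4, Myl7, Sln and Nppa. The cell markers named were those of cardiomyocytes, endothelium, epicardium, atrium and erythrocytes. The other lists were fibroblast (7.38 to 7.39 in saline, 7.30 to 7.46 in 2MT), macrophage (5.81 to 6.01 and 5.82 to 6.02) and smooth muscle (6.30 to 6.33 and 6.22 to 6.39). Adipocyte, neutrophil, lymphocyte and hepatocyte lists had 0 genes above the dim level, and skeletal muscle had 2 of 6. Alternatives were other scalings, filters, thresholds and variance models, array weights, an offset of 16, and each array left out. Figures were drawn with matplotlib 3.10.9.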

Additional observations from a re-analysis of the deposited data

How the results depend on the processing

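The falls of Aldh1a1 (from 1.02 to 1.16) and Aox1 (from 0.88 to 1.21) passed in all 17 alternatives run for them, as did Cyp1b1 (from 0.68 to 1.02), and Esd passed in all 18. Ephx1 passed in 5 of 17 and Ugdh in 3 of 17, always lower in 2MT. With 1 array left out, the differences of Aldh2 (-0.063 to 0.015), Aldh3a2 (-0.033 to 0.067), Aldh9a1 (-0.005 to 0.213), Cbr1 (-0.050 to 0.005) and Shmt1 (-0.117 to 0.083) changed sign around 0, and these genes passed in no alternative run. The 488 genes called became 292 without the variance trend, 219 and 768 at adjusted p under 0.01 and 0.1, and 262 to 648 with 1 array left out. The 2 enzyme genes called became 4 at 0.1 and 2 to 3 with 1 array left out, and the 3 related genes became 8 at 0.1 and 2 to 7, the 7 without saline 3. Scaling moved the median of all genes by under 0.01.

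The replicate numbers in the titles were not shown to pair the arrays: deviations from the group means correlated at 0.07, 0.04 and 0.02 for same-numbered arrays, and 5 of 6 arrays correlated best with their own number. With the replicate block 4 enzyme genes were called (Ephx1 at 0.0463 and Ugdh at 0.0283 besides the first pair), 6 related genes and 586 genes in all. The cause was not tested. Depth does not apply to arrays, and signal over background is unknown.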
